A study of Oryzias latipes with 10 samples.

Results

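Proteins that a liver cell secretes or builds into its membranes enter the endoplasmic reticulum (ER) while they are being made. The 45 genes described here encode the machinery of that entry and of the N-linked glycans added on the way. They were chosen by name, as medaka genes whose symbol begins like a subunit of the signal recognition particle (SRP) or its receptor, the Sec61 channel, the translocon-associated protein (TRAP) complex, signal peptidase, oligosaccharyltransferase, or an enzyme that assembles or trims the glycan. Of 25795 genes listed, 46 matched, and 45 of these reached at least 1 RPM (reads per 1000000 reads of the library) in at least 5 of 10 libraries, as did 14984 genes in all. The matching gene below that level was rpn2, a structural subunit of oligosaccharyltransferase, with 0.369 to 3.16 RPM in wild type and 0 to 1.11 RPM in knockout, at most 31 reads in any library. It was not tested.

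As background, SRP binds a signal sequence as it leaves the ribosome and docks at the SRP receptor, and the chain then passes through the Sec61 channel. Signal peptidase removes the signal sequence. A glycan built on the lipid dolichol by the Alg enzymes is transferred to the chain by oligosaccharyltransferase, and glucosidases then trim it while chaperones check folding. Hepatocytes rely on this route for plasma proteins and, in egg-laying fish, for yolk and egg envelope proteins.

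The livers came from wild-type medaka (WT; Oryzias latipes, a small freshwater fish) and from medaka in which phod1, written pd1 in the genotype label, was knocked out (KO). All fish had long days, and tissue was taken at 12:00. Each genotype had 5 libraries made by Lasy-Seq, which reads the 3' ends of transcripts. Depths recovered from the RPM values were 5422342 to 9803543 reads for WT and 4542721 to 10112313 for KO. The highest, that of KO5, is less certain, since the whole-read check did not accept KO5. The labels state no allele, line number, sex, age or batch, nor whether a library is 1 fish, so a p-value here reflects no more than the spread among these libraries, which may be technical. The symbol table names 0 genes phod1 or pd1, so the knockout was not checked at its own transcript. In bulk liver, fewer cells of a type and less RNA per cell cannot be told apart. WT3 and KO2 stood apart from their groups in egg protein reads, as described below. Calls of members that change without WT3, or without both, are given below.

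The machinery was lower in KO liver. In the limma test, 20 of 45 members (44.4%) fell and 0 rose at an adjusted p under 0.05, against 1.68% of all tested genes lower and 1.17% higher. At an unadjusted p under 0.05, 34 members were lower and 0 higher, against 1757 lower and 696 higher of 14984 tested genes. The median log2 fold change of the members, KO minus WT of log2(RPM + 1), was -0.81, against -0.19 for all tested genes. The estimate lay below 0 for 43 members and 67.3% of all tested genes. All 5 KO libraries lay below all 5 WT libraries for 19 members (42.2%), against 2.6% of tested genes. The fall was moderate in size: 10 of the 20 called members fell by at least 1 log2 unit, against 207 of the 252 genes called lower in all.

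**Figure D1:**
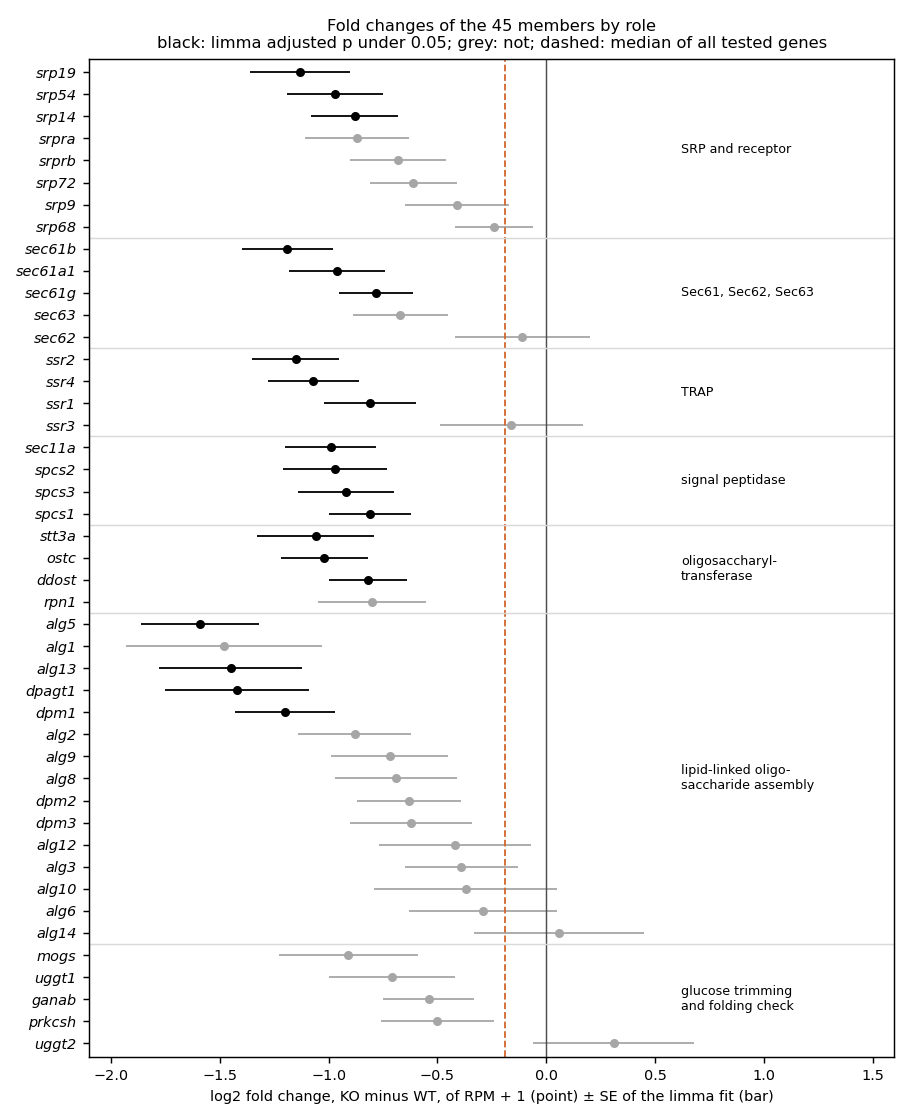
Each point is the log2 fold change (KO minus WT, of RPM + 1) of 1 member and each bar its SE in the limma fit, with members grouped by role. The 20 black points passed at an adjusted p under 0.05 and lie at -0.78 or lower; the dashed line is the median of all tested genes, -0.19.

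Among the 8 genes of SRP and its receptor, 3 fell, 0 rose and 5 did not pass, with a median log2 fold change of -0.78. The gene srp19 (gene ID 101157354) encodes the subunit that helps SRP54 join the particle's RNA. Its values were 67.6, 64.2, 35, 85.4 and 77.0 RPM in WT1 to WT5 and 25.1, 33.2, 28.9, 24.2 and 30.6 RPM in KO1 to KO5. The groups did not overlap, WT3 being the lowest WT library, and the mean fell from 65.8 ± 19.1 to 28.4 ± 3.75 RPM (SD, n = 5), a log2 fold change of -1.13 ± 0.23 (SE; limma adjusted p = 0.00991). srp54 (101163779) encodes the GTPase that holds the signal sequence. It stood at 72.9, 54.1, 36.3, 61.0 and 49.8 RPM in WT1 to WT5 and at 22.2, 28.2, 22.4, 34.0 and 28.9 RPM in KO1 to KO5, again without overlap (-0.97 ± 0.22, limma adjusted p = 0.0206). srp14 (101172543), of the domain that slows the ribosome, fell from 50.6 ± 10.3 to 26.7 ± 2.54 RPM (-0.88 ± 0.20, limma adjusted p = 0.0248), also without overlap.

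The partner of srp14 in that domain, srp9, averaged 55.0 ± 18.3 and 40.5 ± 9.61 RPM and did not pass (limma adjusted p = 0.419). Nor did srp68, at 96.9 ± 16.9 and 81.6 ± 10.8 RPM (-0.24 ± 0.18, limma adjusted p = 0.559), while its binding partner srp72 had non-overlapping groups at -0.61 ± 0.20 (limma adjusted p = 0.128). Within a library, the log2 ratio of srp54 to srp68 averaged -0.84 ± 0.25 in WT and -1.60 ± 0.25 in KO, and that of srp19 to srp68 -0.60 ± 0.48 and -1.52 ± 0.12 (SD, n = 5). Neither ratio overlapped between groups, but these were the only 2 of 14 ratios computed without overlap. For srp54 to srp68 the groups almost touched, with -1.18 in WT3 and -1.19 in KO4. The ratio of srp14 to srp9 overlapped, at -0.09 ± 0.32 and -0.57 ± 0.49. The pairs were picked after the values were seen, so the ratios carry no test. The receptor genes srpra and srprb did not pass, at -0.87 ± 0.24 and -0.68 ± 0.22 (limma adjusted p = 0.0589 and 0.112), and srpra had the smallest p of the members that did not pass. Both passed without WT3 (limma adjusted p = 0.00387 and 0.0172), and srpra also with robust variances (0.0407). The 5 KO values of srprb lay between 36.6 and 39.5 RPM, just under the lowest WT value of 40.0 RPM.

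All 3 measured subunits of the Sec61 channel fell. sec61b (101167479), its beta subunit, had 697, 807, 378, 941 and 723 RPM in WT1 to WT5 and 306, 246.5, 274, 339 and 334 RPM in KO1 to KO5. Every KO library was below every WT library, and the mean fell from 709 ± 208 to 299.8 ± 39.5 RPM (-1.19 ± 0.21, limma adjusted p = 0.00432). sec61a1 (101175640), the pore-forming alpha subunit, had 291, 212, 132, 384 and 249.5 RPM against 123.2, 116, 114, 128 and 132 RPM. Here WT3, at 132.4 RPM, lay only just above the highest KO library, KO5 at 131.9 RPM (-0.96 ± 0.22, limma adjusted p = 0.0244). sec61g (110017315), the gamma subunit, fell from 580.0 ± 95.7 to 335 ± 27.0 RPM (-0.78 ± 0.17, limma adjusted p = 0.0145), without overlap.

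The accessory proteins Sec62 and Sec63 help chains enter after their synthesis has ended, and neither gene passed. sec63 had non-overlapping groups, with 42.6 to 59.4 RPM in WT and 19.0 to 41.5 RPM in KO (-0.67 ± 0.22, limma adjusted p = 0.115). sec62 overlapped almost fully, at 5.64 ± 1.32 and 5.21 ± 1.47 RPM (-0.11 ± 0.31), and its estimate changed sign under TMM scaling (0.06). It rests on 18 to 72 reads a library.

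In the TRAP complex, which sits beside Sec61 and aids the passage of some chains, 3 of 4 genes fell. ssr2 (101161982) had 542, 648, 348, 788 and 672 RPM in WT1 to WT5 and 239.8, 259, 252, 248 and 309.5 RPM in KO1 to KO5. The groups did not overlap (-1.15 ± 0.20, limma adjusted p = 0.00367). ssr4 (101165731) had 411, 297, 199.5, 441 and 340.2 RPM against 173, 114, 148, 177.5 and 170.4 RPM, likewise without overlap (-1.07 ± 0.21, limma adjusted p = 0.00835). For ssr1 (101155969) WT3, at 87.0 RPM, lay below KO5, at 95.8 RPM, and the mean fell from 128 ± 30.2 to 72.3 ± 16.7 RPM (-0.81 ± 0.21, limma adjusted p = 0.0420).

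The fourth TRAP gene, ssr3, differed from this pattern in its spread. Its values were 575, 153, 278, 792 and 369 RPM in WT1 to WT5 and 399, 293, 215, 421.5 and 389 RPM in KO1 to KO5. WT2, not WT3, was the lowest WT library, and the KO values fell inside the WT range (-0.16 ± 0.33, limma adjusted p = 0.85; 0.05 under TMM scaling and 0.11 without WT4). The log2 ratio of ssr2 to ssr3 was 2.09 in WT2 and -0.09 to 0.86 in the other WT libraries, against -0.76 to 0.23 in KO. That pair was also chosen after its values were seen.

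In signal peptidase all 4 members fell, with log2 fold changes from -0.99 to -0.81. With TMM scaling or edgeR, however, 0 of 4 passed, and with DESeq2 2 of 4. The shares of all tested genes called lower were 0.881%, 0.314% and 1.19% in these tests. In each of the SRP, Sec61, TRAP and oligosaccharyltransferase groups edgeR likewise called 0, and TMM left 1. sec11a (101165964), the catalytic subunit, had 166, 168, 88.9, 180.2 and 144 RPM in WT1 to WT5 and 74.9, 51.5, 80.0, 85.9 and 76.4 RPM in KO1 to KO5, without overlap (-0.99 ± 0.21, limma adjusted p = 0.0148). The accessory subunit gene spcs1 (101160314) fell from 131 ± 25.2 to 73.9 ± 11.4 RPM without overlap (-0.81 ± 0.19, limma adjusted p = 0.0233). spcs3 (101167179), which the enzyme needs for activity in yeast, fell from 104 ± 28.8 to 53.1 ± 9.76 RPM (-0.92 ± 0.22, limma adjusted p = 0.0263). spcs2 (101161867) fell from 38.2 ± 7.91 to 19.2 ± 5.57 RPM (-0.97 ± 0.24, limma adjusted p = 0.0312). In spcs3 and spcs2 the groups overlapped, since KO2, at 68.7 and 28.0 RPM, lay above WT3, at 60.9 and 25.5 RPM.

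In oligosaccharyltransferase 3 of 4 tested genes fell. ostc (101168155), a subunit that ties the enzyme to the translocon, had 185, 174, 96.8, 198 and 166 RPM in WT1 to WT5 and 78.9, 77.7, 69.6, 89.6 and 76.4 RPM in KO1 to KO5. No library overlapped (-1.02 ± 0.20, limma adjusted p = 0.00795). ddost (101169166), a structural subunit, had 445, 334.5, 252, 441 and 324 RPM against 225, 191, 211, 178.5 and 191 RPM, again without overlap (-0.82 ± 0.18, limma adjusted p = 0.0178). stt3a (101163628), the catalytic subunit, fell from 153 ± 69.1 to 67.7 ± 12.1 RPM (-1.06 ± 0.27, limma adjusted p = 0.0357). Its groups overlapped, with WT3 at 68.2 RPM below 3 KO libraries at 71.1 to 78.4 RPM. rpn1, a further structural subunit, had 41.7 to 92.0 RPM in WT and 29.1 to 45.6 RPM in KO and did not pass (-0.80 ± 0.25, limma adjusted p = 0.0942; 0.0307 without WT3).

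**Figure D2:**
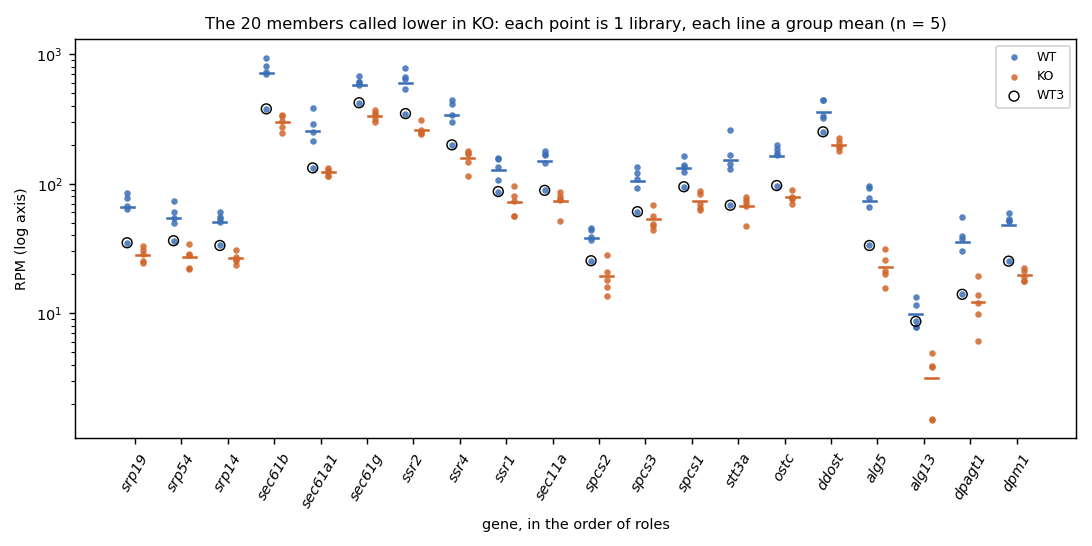
Each point is the RPM of 1 library on a log axis for the 20 members called lower, with WT in blue, KO in orange and a line at each group mean (n = 5); the open circle marks WT3. WT3 is the lowest WT library in 19 of the 20, alg13 being the exception.

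Of the 15 genes that build the glycan on dolichol, 4 fell, 0 rose and 11 did not pass, with a median log2 fold change of -0.69. alg5 (101167889), which makes the dolichol-linked glucose used for the last sugars, had the smallest p of all members. It stood at 93.3, 66.3, 33.4, 96.2 and 78.0 RPM in WT1 to WT5 and at 15.8, 20, 21.3, 25.6 and 31.3 RPM in KO1 to KO5. WT3 and KO5 were the closest libraries and did not overlap, and the mean fell from 73.5 ± 25.5 to 22.8 ± 5.90 RPM (-1.59 ± 0.27, limma adjusted p = 0.00312). dpm1 (101172812), the catalytic subunit of the enzyme that makes dolichol-linked mannose, had 59.1, 51.8, 25.3, 53.0 and 51.2 RPM against 22.3, 17.6, 21.4, 17.8 and 19.2 RPM. WT3 lay well below the other WT libraries but above all KO libraries (-1.20 ± 0.23, limma adjusted p = 0.00808). The other subunits of that enzyme did not pass, with dpm2 at -0.63 ± 0.24 and dpm3 at -0.62 ± 0.28 (limma adjusted p = 0.185 and 0.272).

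The first 2 sugars of the glycan are added by Dpagt1 and by the Alg13 and Alg14 pair. dpagt1 (101160503) had 55.8, 30.5, 14, 37.3 and 39.3 RPM in WT1 to WT5 and 9.83, 19.4, 6.15, 13.9 and 12.1 RPM in KO1 to KO5. Its groups overlapped in WT3 and KO2 (-1.42 ± 0.33, limma adjusted p = 0.0249). alg13 (110015738), the catalytic partner, had 7.78, 11.6, 8.67, 7.86 and 13.4 RPM against 1.5, 1.54, 3.93, 4.90 and 3.86 RPM. The groups did not overlap, although KO1 and KO2 rest on 9 and 7 reads (-1.45 ± 0.33, limma adjusted p = 0.0236). Its membrane partner alg14 averaged 4.09 ± 2.42 and 3.85 ± 1.12 RPM on 5 to 50 reads a library (0.06 ± 0.39, limma adjusted p = 0.961), an estimate that changed sign under several settings.

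The mannosyltransferase genes gave estimates from -1.48 to -0.39 and none passed with all 10 libraries, though alg1, alg9 and alg2 had unadjusted p-values of 0.00389, 0.0153 and 0.00331. alg1, which adds the first mannose, averaged 17.3 ± 12.6 RPM in WT and 4.70 ± 2.49 RPM in KO (-1.48 ± 0.45, limma adjusted p = 0.0896). The WT values of alg1 ran from 3.50 RPM in WT3 to 37.2 RPM in WT4, and without WT3 alg1 passed (-1.90, limma adjusted p = 0.00334). alg2 had no overlap, with 15.7 to 25.7 RPM in WT and 7.16 to 15.1 RPM in KO (-0.88 ± 0.26, limma adjusted p = 0.0825). alg9, alg12 and alg3 stood at -0.72, -0.42 and -0.39. The glucosyltransferase genes alg8, alg10 and alg6, whose products use the dolichol-linked glucose made by Alg5, stood at -0.69, -0.37 and -0.29 (limma adjusted p = 0.221, 0.708 and 0.725). alg10 had 1 to 17 reads a library and passed the level filter in exactly 5 libraries.

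None of the 5 genes that trim glucose or check folding passed in limma with all 10 libraries, and none passed in edgeR or DESeq2. At an unadjusted p under 0.05, 3 were lower and 0 higher in limma, against 1757 lower and 696 higher of 14984 tested genes. mogs, the first glucosidase, had the smallest p, at 32.9 ± 15.5 and 16.4 ± 5.24 RPM (-0.91 ± 0.32, limma adjusted p = 0.15), and passed without WT3 (-1.16, limma adjusted p = 0.0224). ganab and prkcsh, the catalytic and regulatory subunits of the second glucosidase, stood at -0.54 ± 0.21 and -0.50 ± 0.26 (limma adjusted p = 0.204 and 0.354). uggt1, which puts a glucose back on misfolded glycoproteins, stood at -0.71 ± 0.29 (limma adjusted p = 0.226). Its paralog uggt2 was the member with the highest estimate, 0.31 ± 0.37, on 5 to 34 reads a library.

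**Figure D3:**
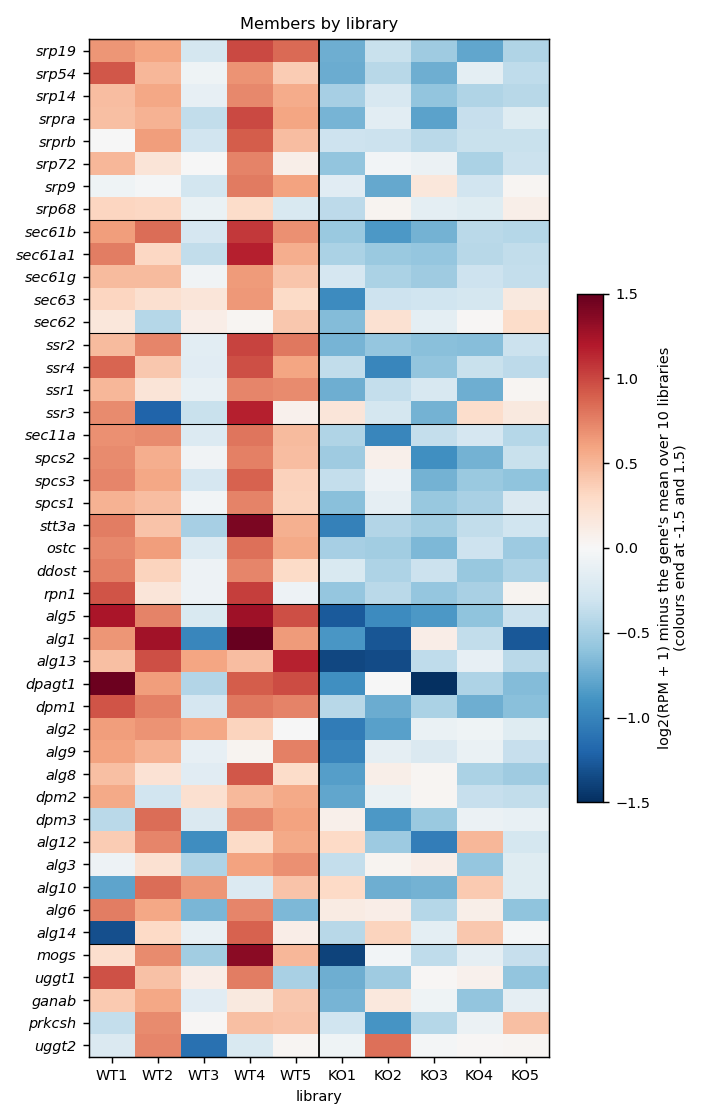
Each cell is the log2(RPM + 1) of a member in 1 library minus that gene's mean over the 10 libraries, with rows grouped by role and in the order of fold change. WT1, WT2, WT4 and WT5 are above the mean for most rows and the KO libraries below, while WT3 is close to it (median deviation -0.17).

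The members varied more between WT libraries than between KO libraries. Their summed level was 5766, 5141, 3313, 7065 and 5296 RPM in WT1 to WT5 and 2806, 2704, 2619, 2969 and 3105 RPM in KO1 to KO5, so that the groups did not overlap. WT4 held the highest WT value of 26 members and WT3 the lowest of 34. The SD over the 5 libraries on the log2 scale was larger in WT than in KO for 38 of 45 members, and for 19 of 45 once WT3 was left out. Without WT3 the count of members called lower was 25, against 3.2% of tested genes, and the median was -0.92. The 5 added were alg1, srpra, srprb, mogs and rpn1. Groups without overlap then numbered 29 members, against 5.69% of tested genes. Without WT3 and KO2, 27 members were called lower, against 4.14% of tested genes, ganab and srp72 being the 2 further ones (limma adjusted p = 0.0289 and 0.0382). The median was again -0.92, and 30 members had no overlap, against 9.44% of tested genes.

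Egg protein transcripts also set WT3 and KO2 apart from their groups. The yolk protein genes vit-6 and ol-vit1 and the egg envelope gene 1-sf together took 10.4%, 13.3%, 2.77%, 12.4% and 14% of all reads from WT1 to WT5. The shares for KO1 to KO5 were 0.593%, 6.95%, 0.571%, 0.428% and 0.479%. The summed level of the members was 3313 RPM in WT3 and 2704 RPM in KO2. WT3 was above KO2 for 29 of 45 members (64.4%) and 50.3% of all tested genes. Against KO1, KO3, KO4 and KO5 the shares were 82.2%, 82.2%, 75.6% and 62.2% of members. For all tested genes they were 71.2%, 59.1%, 62% and 58.1%. The median log2 difference of members, WT3 minus KO1 to KO5 in turn, was 0.36, 0.19, 0.25, 0.12 and 0.18. For all tested genes it was 0.40, 0.00, 0.14, 0.23 and 0.14. In size, the members' difference was thus smaller than that of all tested genes against KO1 and KO4. Each side of these comparisons is 1 library, so they have no test. The part of egg protein reads in the members' fall was not tested.

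**Figure D4:**
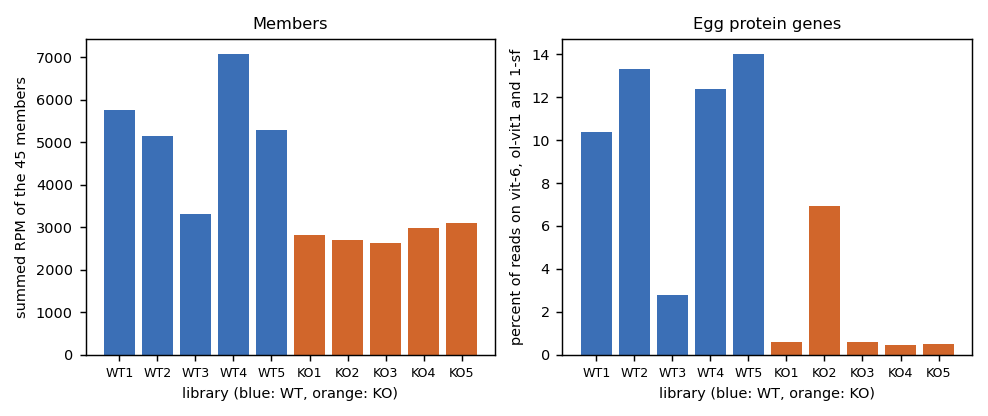
Bars start at 0 and show, for each library, the summed RPM of the 45 members (left) and the percent of reads on vit-6, ol-vit1 and 1-sf (right). WT3 has 2.77% egg protein reads and a summed member level of 3313 RPM. KO2 has 6.95% and 2704 RPM.

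The number of calls depended on scaling and on the test, while the median estimate of the members stayed below that of all tested genes. TMM scaling moved the median of all tested genes from -0.19 to -0.01 and left 7 of 45 members lower, against 0.881% of tested genes. Their median was then -0.60, and 41 of 45 estimates were below 0. The 7 were alg5, ssr2, sec61b, ostc, dpm1, srp19 and alg13, and the other 13 had limma adjusted p-values of 0.0518 to 0.146. With edgeR on reads recovered from 9 libraries, without KO5, only alg5 passed (adjusted p = 0.0210), against 0.314% of tested genes. The other 19 had edgeR adjusted p-values of 0.0590 to 0.323, and at an unadjusted p under 0.05 edgeR had 26 members lower, against 5.32% of tested genes. DESeq2 on the same reads called 15 members lower, against 1.19%, all among the 20, and gave alg13 no adjusted p. The calls of sec61g, sec11a, ddost and spcs3 were lost with DESeq2 (adjusted p = 0.119, 0.0603, 0.109 and 0.0757), and also with TMM scaling and edgeR. Limma on those 9 libraries called 13, against 0.954%. With no filter on low values limma called 13, against 0.456%.

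Leaving out 1 library at a time, 7 members passed limma in all 10 fits, namely alg5, ssr2, sec61b, ostc, dpm1, ssr4 and srp19. The share of all tested genes that passed in all 10 fits was not counted, so the 7 have no background beside them. The other called members lost their call in some fits, at limma adjusted p-values of up to 0.136. sec61g and sec11a passed in 8 fits, alg13 in 7, ddost and srp54 in 6, spcs1, sec61a1 and spcs3 in 4, srp14 and dpagt1 in 3, spcs2 and ssr1 in 2 and stt3a in 1. The number of members called lower was 8 without WT1 or without WT4, 11 without WT2 or KO3, 12 without KO4, 13 without WT5 or KO5, 14 without KO1 and 18 without KO2. The share of all tested genes called lower moved too, from 0.694% without WT1 and 0.727% without WT4 to 1.94% without KO2. Members called higher stayed at 0 in every one of these fits.

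Other genes of the same route, listed by function, were read from the same fit, with all 10 libraries. Those not called in it were not read in the fits without WT3. Among all tested genes 1.68% were called lower and 1.17% higher, with a median of -0.19. Both tested subunits of oligosaccharyltransferase outside the naming rule fell. krtcap2 went from 147 ± 48.5 to 63.9 ± 7.93 RPM (-1.11 ± 0.24, limma adjusted p = 0.0145) and tmem258 from 239 ± 65.4 to 134 ± 12.8 RPM (-0.79 ± 0.20, limma adjusted p = 0.0404). Both calls were lost with no filter (adjusted p = 0.0547 and 0.0983), TMM scaling (0.0544 and 0.176) and edgeR (0.135 and 0.277). tmem258 was also lost with DESeq2 (0.105) and the replicate block (0.0559), whereas krtcap2 passed with DESeq2 (0.0184). krtcap2 passed in 8 of 10 fits without 1 library and tmem258 in 1.

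Of 24 further translocon and membrane insertion genes, 4 fell, 0 rose and 20 did not pass, with a median of -0.34. At an unadjusted p under 0.05, 11 were lower and 1 higher in limma, against 1757 and 696 of 14984 tested genes. tram1, whose product lies beside Sec61 and helps signal sequences insert, had 273, 233, 109.5, 333.5 and 239.8 RPM in WT1 to WT5 and 94.1, 122.8, 78.2, 102 and 83.6 RPM in KO1 to KO5. Only KO2 lay above WT3 (-1.23 ± 0.24, limma adjusted p = 0.00835). hm13, the protease that clears cut signal peptides, had 84.9, 79.6, 36.3, 84.1 and 80.8 RPM against 30.5, 29.5, 31.1, 33.3 and 33.8 RPM, without overlap (-1.12 ± 0.23, limma adjusted p = 0.0101). The ER chaperone genes dnajc3 and hspa5, whose products act on incoming chains, had log2 fold changes of -1.33 and -1.43 and passed (limma adjusted p = 0.00376 and 0.0199). The call of hspa5 was lost with no filter, TMM, robust variances and edgeR, at adjusted p-values of 0.0977, 0.0562, 0.124 and 0.151, and in 4 of 10 fits without 1 library, and the calls of tram1 and hm13 were lost with edgeR, at 0.0990 and 0.0920.

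Of 13 genes for lectins and partners that carry or check glycoproteins, 5 fell, 0 rose and 8 did not pass, with a median of -0.69. At an unadjusted p under 0.05, 8 were lower and 0 higher in limma, against 1757 and 696 of 14984 tested genes. sel1l, the adaptor of an ER degradation complex, had 67.9, 35.7, 30.6, 97.3 and 73.1 RPM in WT1 to WT5 and 13.3, 13.2, 15.0, 17.8 and 16.5 RPM in KO1 to KO5 (-1.82 ± 0.28, limma adjusted p = 0.00141). The cargo receptor pair lman1 and mcfd2, which carry coagulation factors out of the ER in mammals, each had a log2 fold change of -1.61 (limma adjusted p = 0.00388 for lman1 and 0.00336 for mcfd2). edem1, which marks misfolded glycoproteins for degradation, had a log2 fold change of -1.38 (limma adjusted p = 0.00419). sel1l, lman1, mcfd2 and edem1 also passed under TMM, edgeR and DESeq2. The fifth call, erlec1 (-0.93 ± 0.25), lies outside the naming rule; it passed in 2 of 10 fits without 1 library. Its call was lost with no filter (adjusted p = 0.0824), TMM (0.129), edgeR (0.259), DESeq2 (0.127), the replicate block (0.101), and without WT3 and KO2 (0.0554). The lectin chaperone gene canx averaged 83.0 ± 16.6 and 69.4 ± 11.8 RPM and did not pass.

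Enzymes that supply dolichol and sugar donors gave 0 lower, 1 higher and 15 not passed of 16, with a median of -0.59. At an unadjusted p under 0.05, 8 of the 16 were lower, against 1757 of 14984 tested genes. edgeR and DESeq2 called 0 and 1 lower, against 47 and 179 of all tested genes. The gene that rose was pgm1, which interconverts glucose phosphates, from 182 ± 80.3 to 411 ± 96.1 RPM (1.24 ± 0.24, limma adjusted p = 0.00829). In the Golgi, where glycans are finished, 1 of 16 genes fell, the galactosyltransferase gene b4galt1 (-1.46 ± 0.32, limma adjusted p = 0.0183; lost with edgeR at 0.115, with no filter at 0.0768 and in 4 of 10 fits without 1 library), with KO2 at 35.2 RPM inside the WT range and a list median of -0.28. Of 19 genes for glycosylphosphatidylinositol anchors, which share the dolichol-linked mannose, 0 passed in limma, edgeR or DESeq2 and 1 was lower at an unadjusted p under 0.05 (median -0.29). Secreted plasma proteins are part of the cargo of this route, and their list shares genes with the hepatocyte markers. Of 19 listed, 10 were matched by symbol. They showed the opposite sign to the members, with 0 of 10 lower, 2 higher (hpx and serpinf2) and a median of 0.71. Of the 10, 7 were higher at an unadjusted p under 0.05, 2 with edgeR, 5 with DESeq2 and 5 with TMM, and 0 were lower in any of these. Among all 14984 tested genes, 696 were higher at that unadjusted p, 131 with edgeR, 310 with DESeq2 and 313 with TMM. The hpx call was lost with no filter (adjusted p = 0.0679). In the egg protein and estrogen receptor list, which holds further cargo of this route, 4 of 4 tested genes fell (median -3.31). There vit-6, ol-vit1, 1-sf and esr1 stood at -4.26, -3.12, -3.51 and -1.88 (limma adjusted p = 0.00165, 0.00695, 0.00289 and 0.00646). All 4 passed with TMM, 2 with DESeq2 and 0 with edgeR. The calls of vit-6, ol-vit1 and 1-sf were lost with robust variances, and that of ol-vit1 also with no filter.

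**Figure D5:**
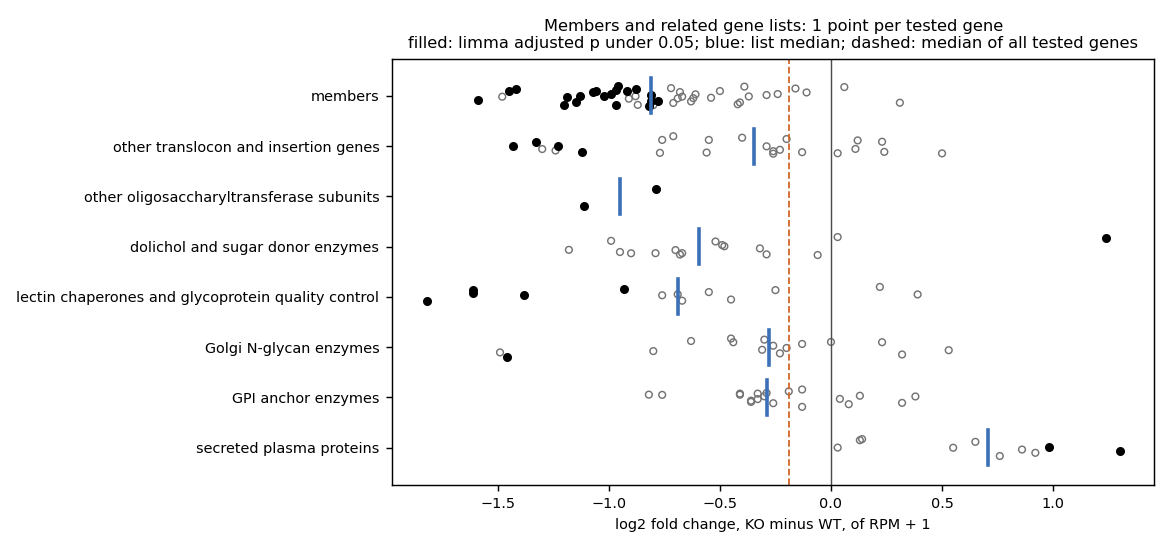
Each point is the log2 fold change (KO minus WT, of RPM + 1) of 1 tested gene, filled where the limma adjusted p is under 0.05; blue lines are list medians and the dashed line is the median of all tested genes. The medians of the members (-0.81) and lectin genes (-0.69) lie to the left of the dashed line at -0.19, and that of secreted plasma proteins (0.71) to the right. The other list medians drawn, from -0.95 to -0.28, also lie to the left. The egg protein and estrogen receptor list (median -3.31) is not drawn. Single members and lectin genes lie on both sides.

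The genes whose pattern over the 10 libraries was most like that of alg5, among 8013 tested genes with a symbol outside the members, were mcfd2, psmb4, hm13, tmem258 and tmem33. Pearson's r on log2(RPM + 1) was 0.975, 0.973, 0.971, 0.970 and 0.966. These values hold the difference between the genotypes as well as the low WT3, and they are a description of likeness with no test.

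Of 17 hepatocyte markers 9 were matched by symbol, and all 9 passed the level filter. Their summed level was 8961 to 22249 RPM in WT (median 13541) and 21274 to 27933 RPM in KO (median 24565). Much of that difference came from hpx, which averaged 5159 ± 2155 RPM in WT and 12080 ± 1598 RPM in KO. In contrast, rbp4 averaged 2853 ± 523.5 and 2910 ± 548.4 RPM (0.03 ± 0.20, limma adjusted p = 0.964). The estimates of serpinc1 and itih2 were 0.14 ± 0.23 and 0.13 ± 0.36. One, hpx, was called higher, and 6 were higher and 0 lower at an unadjusted p under 0.05 in limma, against 696 and 1757 of 14984 tested genes. WT3 was the highest WT library for these markers except rbp4 and itih2. Only 2 of 21 exocrine pancreas markers were matched, and these, like most members, were lowest in WT3 among WT libraries. Unlike most members, both were highest in WT5, whereas 26 members were highest in WT4. Among KO libraries both were highest in KO1, where 20 members were lowest. cpb1 had 12.2 to 208 RPM in WT and 3.52 to 71.9 RPM in KO, and pla2g1b 3.32 to 22.6 and 0 to 9.16 RPM. The summed levels of the other lists in WT and KO were 547 to 1807 and 854 to 1885 RPM for 3 macrophage markers, and 13.5 to 26.6 and 19.3 to 34.2 RPM for 6 T and B cell markers, of which rag1 was at 0 in all libraries. They were 177 to 443 and 122.9 to 345 RPM for 3 plasma cell markers, mostly from xbp1, which hepatocytes express too. They were 24.2 to 43.9 and 28.4 to 51.6 RPM for 5 endothelial, 84.4 to 110.3 and 99.3 to 154 RPM for 2 biliary and 21.9 to 38.9 and 17.1 to 34.1 RPM for 6 stellate or fibroblast markers. The 4 germ cell markers summed to 1.02 to 47.6 and 0.478 to 7.48 RPM, mostly from dazl. No erythrocyte marker was matched by symbol. The part of other cells in the members' fall was not tested.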

How the data were processed

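Liver RNA of 5 WT and 5 KO medaka libraries was analysed, grouped by the sample titles. Per the labels, libraries were made with the Lasy-Seq protocol; BWA 0.7.17-r1188 and Salmon 1.4.0 are listed, with no role, in the submitters' processing notes. No genome build is given in the sources used here. Values were deposited by the authors as RPM, which sum to 1000000 in each library, are not divided by gene length and were used as deposited. Levels are therefore not compared between genes.

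Symbols for all 25795 IDs came from a RefSeq table (assembly ASM223467v1, used for names only), so genes known there by a LOC number could not be members. Members, roles, lists, markers and alternatives were chosen with earlier results of these data known. In each library 100% of the values were whole multiples of the RPM of 1 read (0.0989 to 0.220) within 1e-06, which gave the totals; the whole-read check of the table did not accept KO5, which was therefore kept out of the count tests. Pairs of libraries of a group differed beyond sampling noise (chi-square over degrees of freedom 15.3 to 156.5), so none was counted as a duplicate.

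limma 3.58.1 with a variance trend (R 4.3.3) was fitted on log2(RPM + 1), which understates changes of low genes, for the 14984 genes that reached 1 RPM in 5 or more libraries. Tests were two-sided, with Benjamini-Hochberg adjustment over all tested genes. The fit was tested on counts simulated with a dispersion of 0.15 for every gene. That value was set, not estimated from these data, so the shares hold for that setting and may differ for the members. The fit called 20.0% of genes raised 2-fold and 21.7% of those lowered 2-fold. For 4-fold changes it called 98.0% and 83.3%. Of its calls, 7.63% were false. A member that did not pass is therefore not shown to be unchanged. Alternatives were pseudocounts, filters, TMM scaling, rescaling without the 20 most abundant genes, robust variances, a replicate block, left-out libraries, edgeR 4.0.16 and DESeq2 1.42.0.

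Named were all called members, members nearest the threshold, the called genes of each related list, at most 4 by smallest p (erlec1 was named beyond this rule, after its values were seen), marker lists and the 5 genes most like the member with the smallest p. Tables and figures used Python 3.11.15, pandas 2.3.3, numpy 2.4.6 and matplotlib 3.10.9. The planned promoter search was not run.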

Additional observations from a re-analysis of the deposited data

Results flagged for a closer look

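Among 132 groups of 5 libraries checked (each named gene in WT and in KO), 14 held a library that lay far from the other 4. The rule picks about 1 in 20 groups of independent, normally distributed values. The genes share the same libraries, so the 14 are not read against that rate. Of the members, dpm1 stood at 25.3 RPM in WT3 against 51.2 to 59.1 in the other WT libraries, and sec63 at 59.4 RPM in WT4 against 42.6 to 47.2. In KO5, ssr2 stood at 309.5 RPM against 239.8 to 259 and rpn1 at 45.6 RPM against 29.1 to 33.0. In KO2, uggt2 stood at 6.38 RPM against 3.00 to 3.26.

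The other 9 all concern WT3 or KO2. hm13 was at 36.3 RPM in WT3 (others 79.6 to 84.9), tmem33 at 39.7 RPM in WT3 (57.2 to 62.8) and edem1 at 40.1 RPM in KO2 (23.8 to 27.6). vit-6 was at 3643 RPM in WT3 (18817 to 22785) and 8323 RPM in KO2 (384.2 to 490.1), and ol-vit1 at 12020 RPM in WT3 (45018 to 53866) and 34684 RPM in KO2 (1914 to 3690). 1-sf was at 26471 RPM in KO2 (1814 to 2571) and esr1, an estrogen receptor gene, at 94.2 RPM in KO2 (14.5 to 22.1).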

How the results depend on the processing

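Members called lower numbered 20, and 13 without a filter, 7 with TMM and 1 with edgeR; leaving out 1 library gave 8 to 25, and all other alternatives gave counts within 1.5 times. Members called higher were 0 under every alternative run. All tested genes called lower numbered 252, and 103 without a filter, 132 with TMM, 47 with edgeR, 621 without WT3 and KO2, and 104 to 479 without 1 library. Those called higher numbered 175, and 73 without a filter, 313 with TMM, 310 with DESeq2, 424 without WT3 and KO2, and 94 to 365 without 1 library. Same-numbered libraries did not deviate together over all tested genes (r from -0.081 to 0.001, and none was best matched by its own number). Such correlations cannot exclude a weak or gene-limited link by number. The main fit did not pair libraries by number. With the replicate block 19 members were lower, and 190 genes lower and 145 higher in all. Signs reversed only for members that did not pass: uggt2 to -0.09 without WT3 and KO2; ssr3 to 0.05 with TMM and 0.11 without WT4; sec62 to 0.06 with TMM and 0.04 without KO1; and alg14 to -0.01 with a pseudocount of 5, -0.26 without WT1, -0.02 without KO2, -0.03 without KO4 and -0.04 without WT3 and KO2. Without 1 library the estimate ran from -0.48 to 0.11 for ssr3, from -0.23 to 0.04 for sec62 and from -0.26 to 0.29 for alg14. The causes were not tested. Depth limits alg10, alg13, alg14, sec62 and uggt2, with as few as 1, 7, 5, 18 and 5 reads in a library.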
